A study of Mus musculus with 8 samples.

Results

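The comparison set 2 wild-type macrophage libraries treated with lipopolysaccharide (LPS) against 2 untreated wild-type libraries, which are 4 of the 8 ATAC-seq libraries of the study. Bone marrow cells of mice were grown for 7 days in 60 mm dishes into bone-marrow-derived macrophages, and the LPS group was then activated with LPS for 6 h. All cells were frozen in medium with 5% DMSO and thawed before tagmentation, and the libraries were made with 10 cycles of PCR. The other 4 libraries came from Lamin-A knockout macrophages, untreated or given LPS in the same way, and are used below as libraries that had no part in choosing the regions. Strain, sex, age of the mice and the dose of LPS are not given in the labels, nor whether the 2 libraries of a group came from separate animals. All p-values therefore measure the spread between these libraries, which may be technical.

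Peaks sharing 1 bp or more, from any of the 4 lists, were joined into 73343 regions. A region was gained when both LPS lists and neither untreated list held a peak there, and lost in the reverse case. There were 7780 gained regions, 10.6% of all, and 4628 lost regions, 6.31% of all. Another 40033 regions (54.6%) were held by all 4 lists, and the remaining 20902 (28.5%) were held in other combinations, such as 4226 held by the first LPS list alone. A region without a peak in a list may still have been open but below the threshold of the peak caller. Each class needs both libraries of a group: without LPS library 2 there would be 12092 gained regions, and without untreated library 1, untreated library 2 or LPS library 1 there would be 7734, 7202 or 7382 lost regions.

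LPS is a cell wall component of Gram-negative bacteria. Macrophages bind it with CD14, MD-2 and the Toll-like receptor TLR4, whose adaptors MyD88 and TRIF switch on the transcription factors NF-kB, AP-1 and IRF3. These act at sites that the lineage factor PU.1 and C/EBP factors already hold open, and they also open further enhancers. A first wave of cytokines follows, among them interferon beta, which acts back on the cells through its receptor and induces the antiviral genes. ATAC-seq marks DNA that the Tn5 transposase can reach, mostly promoters and enhancers.

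Promoters of 8 genes with such changes are shown first, as the 250 bases before the annotated start of transcription, so that the letters and the peaks can be read together. Il1a, Il1rn and Serpinb2 lay under gained regions, Gbp5 and Ptgs2 under regions that rose in rank, Gpr183 and Pf4 under lost regions, and Cd9 under a region that fell. They were chosen from the promoters described below because each holds at least 1 match to a motif of an LPS-responsive or lineage factor, so the matches themselves are no finding. Sequences and starts are from RefSeq on GRCm38.p6, the same assembly as mm10. They are written 5' to 3' along the strand of the gene, and capitals mark the matches named after each set. The first set holds the promoters with gained peaks.
Il1a, chr2:129309973-129310222, minus strand: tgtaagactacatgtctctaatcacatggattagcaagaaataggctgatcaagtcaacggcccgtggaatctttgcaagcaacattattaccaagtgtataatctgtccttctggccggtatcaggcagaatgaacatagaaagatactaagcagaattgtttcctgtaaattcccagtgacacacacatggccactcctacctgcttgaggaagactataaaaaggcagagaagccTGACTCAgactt
Il1rn, chr2:24336610-24336859, plus strand: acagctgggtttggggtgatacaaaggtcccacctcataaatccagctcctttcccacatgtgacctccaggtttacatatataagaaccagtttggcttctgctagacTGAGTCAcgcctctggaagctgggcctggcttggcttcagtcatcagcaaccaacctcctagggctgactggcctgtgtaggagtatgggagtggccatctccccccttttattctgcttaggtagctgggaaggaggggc
Serpinb2, chr1:107511173-107511422, plus strand: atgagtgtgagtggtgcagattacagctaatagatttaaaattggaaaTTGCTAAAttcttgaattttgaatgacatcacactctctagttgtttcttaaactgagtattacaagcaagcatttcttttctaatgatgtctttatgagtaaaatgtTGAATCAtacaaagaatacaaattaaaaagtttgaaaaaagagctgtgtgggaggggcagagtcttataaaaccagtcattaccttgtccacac
Capitals in these lines mark an AP-1 site, 12 bases before the start in Il1a, 141 in Il1rn and 94 in Serpinb2, and in Serpinb2 also a C/EBP site 202 bases before it. Il1a encodes the cytokine IL-1 alpha, Il1rn the natural antagonist of the IL-1 receptor, and Serpinb2 the plasminogen activator inhibitor PAI-2. Their summits lay 52, 58 and 91 bases from the start. The peak over the Il1a start had a -log10 p of 74.0 and 58.2 in the LPS lists, that of Il1rn 56.3 and 47.0, and that of Serpinb2 92.6 and 74.5. None of the 3 was called in an untreated list.

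The second set holds promoters whose region was called in all 4 libraries and rose in rank.
Gbp5, chr3:142496684-142496933, plus strand: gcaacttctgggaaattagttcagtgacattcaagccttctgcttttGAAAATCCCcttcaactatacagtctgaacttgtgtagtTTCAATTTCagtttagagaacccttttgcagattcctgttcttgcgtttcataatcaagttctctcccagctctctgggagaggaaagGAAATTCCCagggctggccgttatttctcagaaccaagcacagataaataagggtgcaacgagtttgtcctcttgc
Ptgs2, chr1:150099781-150100030, plus strand: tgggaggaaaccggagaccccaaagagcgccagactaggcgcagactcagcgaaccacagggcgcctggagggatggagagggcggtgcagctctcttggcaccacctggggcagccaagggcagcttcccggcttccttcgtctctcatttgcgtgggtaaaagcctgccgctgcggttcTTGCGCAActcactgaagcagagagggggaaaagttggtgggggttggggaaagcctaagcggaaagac
Capitals mark kB sites 203 and 76 bases before the Gbp5 start, with an interferon-stimulated response element 164 bases before it, and a C/EBP site 69 bases before the Ptgs2 start. Gbp5 encodes a guanylate-binding GTPase that acts against intracellular bacteria. Its promoter peak had a -log10 p of 31.7 and 20.9 in the untreated lists and 152 and 126 in the LPS lists. Ptgs2 encodes cyclooxygenase-2, the inducible enzyme of prostaglandin synthesis, and its peak had values of 58.6 and 62.0 untreated and 225 and 133 with LPS. In both promoters each LPS -log10 p stood above each untreated one. The fold enrichment at Ptgs2 overlapped, at 9.44 and 10.9 untreated and 13.4 and 10.4 with LPS, and its rise was not called when ranked by fold enrichment or without either untreated library. The rise at Gbp5 was called in every setting in which it could be tested.

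The third set holds promoters whose peak was lost or fell.
Gpr183, chr14:121965194-121965443, minus strand: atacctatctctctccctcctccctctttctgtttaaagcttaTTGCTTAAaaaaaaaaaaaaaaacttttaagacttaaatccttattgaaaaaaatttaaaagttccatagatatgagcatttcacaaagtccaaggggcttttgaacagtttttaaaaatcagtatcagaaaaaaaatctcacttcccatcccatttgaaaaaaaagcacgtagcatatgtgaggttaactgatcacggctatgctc
Pf4, chr5:90772185-90772434, plus strand: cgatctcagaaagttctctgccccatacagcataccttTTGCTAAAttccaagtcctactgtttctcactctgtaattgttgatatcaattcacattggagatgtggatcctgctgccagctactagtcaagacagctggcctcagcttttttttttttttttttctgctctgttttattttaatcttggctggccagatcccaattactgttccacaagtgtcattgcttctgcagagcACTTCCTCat
Cd9, chr6:125494761-125495010, minus strand: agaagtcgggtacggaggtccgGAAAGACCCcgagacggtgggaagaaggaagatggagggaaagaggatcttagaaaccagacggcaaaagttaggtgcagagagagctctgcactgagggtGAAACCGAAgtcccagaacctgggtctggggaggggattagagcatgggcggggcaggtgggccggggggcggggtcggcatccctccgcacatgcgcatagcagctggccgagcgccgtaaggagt
Capitals mark a C/EBP site 207 bases before the Gpr183 start, a C/EBP site 212 and a PU.1 site 10 bases before the Pf4 start, and in Cd9 a kB site 228 and an interferon-stimulated response element 127 bases before the start. Gpr183 encodes the oxysterol receptor EBI2, Pf4 the chemokine platelet factor 4 (CXCL4), and Cd9 a tetraspanin of the cell surface. The peak at the Gpr183 start had a -log10 p of 52.2 and 55.7 in the untreated lists, and that of Pf4 58.0 and 42.0, and neither was called with LPS. The Cd9 peak was called in all 4 lists, at 27.7 and 38.0 untreated and 12.7 and 12.2 with LPS, and its fall was not called when ranked by fold enrichment or without untreated library 2.

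Over the 21263 promoter windows of 300 bases (250 before the start and 50 after it), 93 were overlapped by a gained region (0.437%), 186 by a lost region (0.875%), 102 by a region that rose (0.480%) and 333 by a region that fell (1.57%). Each motif was searched on both strands, by its letters, where N is any base. The AP-1 site TGANTCA stood in 23.7% of the gained windows and 13.7% of the risen ones, against 6.99% of all windows and 4.69% of those with a region in all 4 lists. The C/EBP site TTGCNNAA stood in 21.5% of gained and 13.7% of risen windows, against 10.2% of all. The kB site GGGNNTTTC was found in 13.7% of risen and 6.45% of gained windows, against 4.26% of all, and the interferon-stimulated response element GAAANNGAA in 16.7% of risen and 7.53% of gained windows, against 8.15% of all. The PU.1 site GAGGAAGT was most frequent in fallen windows, at 7.21% against 3.13% of all. The ETS site CCGGAAGT, whose last 6 letters are those of the PU.1 site but which cannot be the same match, stood in 10.1% of windows with a region in all 4 lists and in 0 of the 93 gained windows. These shares describe letters in a window and not binding, several windows can belong to 1 gene, and each small set rests on few matches, such as 22 AP-1 and 6 kB matches among the gained windows.

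**Figure D1:**
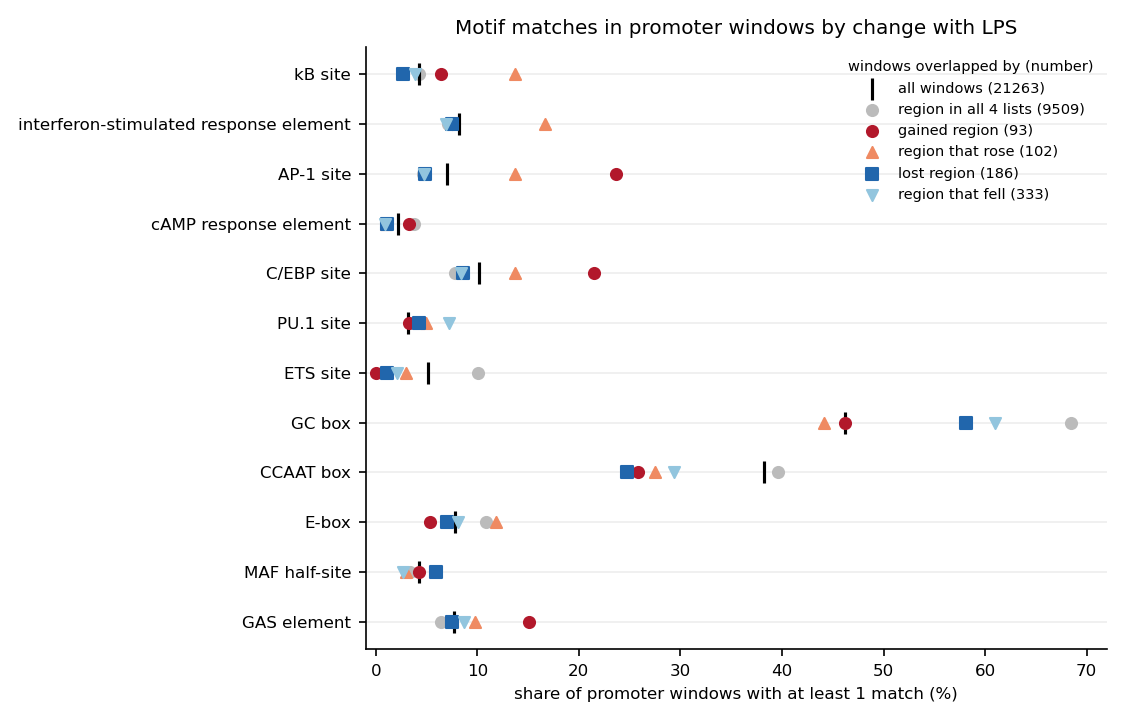
Share of promoter windows with at least 1 match to each motif (x axis, percent), for all windows and for windows overlapped by each class of region. The AP-1, C/EBP and GAS rows have the gained windows farthest right, the kB and interferon rows have the windows that rose farthest right, and the ETS and GC box rows have the windows with a region in all 4 lists farthest right.

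Further promoters with gained peaks included Lcn2, which encodes the iron-scavenging lipocalin-2 (62.8 and 45.6 in the LPS lists), Hamp, which encodes the iron hormone hepcidin (46.1 and 43.2), Slfn1 (41.8 and 43.9) and Sema4a (78.9 and 55.5). Promoters that rose included Bcl3, a nuclear IkB protein, whose peak had a -log10 p of 11.2 and 15.8 untreated and 53.8 and 39.5 with LPS. Tarm1, a receptor of myeloid cells, had values of 64.3 and 56.6 untreated and 319 in both LPS lists. Fas, the death receptor, had values of 72.3 and 86.1 untreated and 231 and 241 with LPS, and Aoah, the enzyme that deacylates LPS, 57.7 and 68.0 untreated and 189 and 172 with LPS. In these promoters the LPS values of -log10 p did not overlap the untreated ones, but the rise at Aoah was not called when ranked by fold enrichment or without either untreated library, and that at Fas not without either untreated library. Promoters that fell included S100a4, a calcium-binding protein, at 141 and 136 untreated and 22.9 and 19.1 with LPS, and Syk, a tyrosine kinase of Fc and lectin receptors, at 56.9 and 54.6 untreated and 14.9 and 19.2 with LPS, the latter not called without either untreated library.

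The 4 lists were alike in length and background. They held 53942 and 55064 peaks untreated and 59750 and 55357 with LPS, covering 23.20 to 24.96 Mb, and the flat background that the peak values imply was 5.53 reads in each. The mean peak number was 54503 ± 793.4 untreated and 57554 ± 3106 with LPS (SD, n = 2 each), a difference of 3050.5, exact two-sided permutation p = 0.33, which is the smallest p that 2 against 2 libraries allow (Benjamini-Hochberg adjusted p = 0.444 over 4 such tests). Covered length differed by 0.488 Mb (exact permutation p = 0.667) and by -0.0357 or -0.261 Mb without untreated library 1 or LPS library 1, median peak width differed by -13 bp (exact permutation p = 0.33) and the share of peaks within 1 kb of a gene end by -1.49 percentage points (exact permutation p = 0.33). All 9 macrophage markers checked, among them Csf1r, Adgre1, Spi1, Lyz2 and Cd68, had a region held by all 4 lists at a gene end. Of the markers of other cells the same held for 1 of 9 B cell genes, 2 of 16 T and NK cell genes, 4 of 13 neutrophil genes, 4 of 12 dendritic cell genes, 1 of 12 erythroid and megakaryocyte genes, 3 of 13 stromal and endothelial genes and 5 of 12 stem and progenitor genes. The share over all genes was not taken by this measure. By another measure, a region held by all 4 lists overlapped 44.7% of all promoter windows of 300 bases. What the counts mean for the presence of other cells was not tested.

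Most regions that changed lay away from gene ends. The RefSeq gene table used here gives no strand, so distances run from the summit of a region's strongest peak to the closest boundary of a protein-coding gene, whether start or finish, called its gene end. Only 412 gained regions (5.30%) lay within 1 kb of a gene end, against 479 lost regions (10.4%) and 25.3% of the regions held by all 4 lists. The median distance was 19.2 kb for gained regions, 15.2 kb for lost regions and 8.65 kb for regions in all 4 lists, and 26.1%, 21.8% and 15.8% lay more than 50 kb from any gene end. Regions held in other combinations of lists stood close to the lost ones. Of these, 10.0% lay within 1 kb and 21.2% beyond 50 kb, with a median distance of 14.5 kb. The position of lost regions is thus not particular to regions that changed. Gained regions were also stronger than lost ones. By the mean percentile of -log10 p within the lists that held them, the median was 31.0 for gained and 21.3 for lost regions, against 61.2 for regions in all 4 lists, and 22 gained and 0 lost regions reached the top 10% of their lists. Because a region was assigned to a class by where it was called, weak regions are the ones that can most easily be gained or lost.

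**Figure D2:**
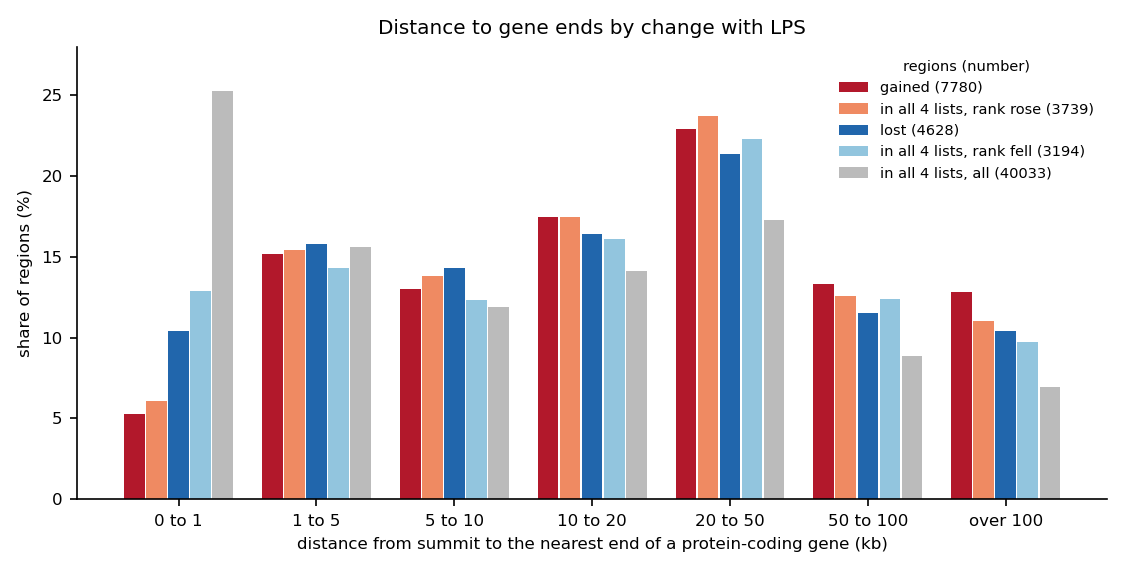
Share of each class of regions (y axis, percent) by distance to the closest protein-coding gene end (x axis, kb). The bars for regions held by all 4 lists stand highest within 1 kb, at 25.3%, while gained regions have 5.30% there and lost regions 10.4%.

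Among the 40033 regions held by all 4 lists, each list was ranked again by -log10 p over these same regions, and the ranks, as normal scores, were compared by limma. A shift of 1 is then 1 standard deviation of the ranks in a list. At a Benjamini-Hochberg adjusted p under 0.05, 3739 regions (9.34%) rose with LPS and 3194 (7.98%) fell. Without regard to the test, both LPS ranks stood above both untreated ranks in 11697 regions (29.2%) and below both in 13546 (33.8%). Regions that rose had a median distance of 18 kb to a gene end and regions that fell 15.8 kb, and 6.10% and 12.9% of them lay within 1 kb of one. The number of calls rests on the untreated pair more than on the LPS pair: without untreated library 1 there were 1039 rises and 184 falls, without untreated library 2 there were 752 and 138, without LPS library 1 there were 1755 and 1990, and without LPS library 2 there were 1690 and 1837. Of the 3739 rises, 656 to 1669 were still called with 1 library left out, and of the 3194 falls 136 to 1385. Ranked by fold enrichment in place of -log10 p, 2762 of the rises and 2136 of the falls were still called. Some of the rank calls described by gene below held in every setting in which they could be tested. Among them were those at Cxcl10, Socs3, Nos2 (0.1 kb), Alcam, Itgb8, Itgb5, Mef2a and Met. Most of the other calls were lost without 1 or the other untreated library.

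The 10 largest rises stood in the lowest 10% of regions in both untreated libraries and at percentiles from 58.9 to 96.8 with LPS. At chr15:67138553-67139254, 36.0 kb from St3gal1 (a sialyltransferase of the Golgi), the percentile among regions in all 4 lists was 1.25 and 0.0487 untreated and 91.3 and 96.4 with LPS, a shift of 4.35 ± 0.38 (SE, limma, adjusted p = 0.0107). At chr11:44389916-44390624, 9.8 kb from Il12b, which encodes the p40 chain shared by IL-12 and IL-23, it was 8.50 and 0.802 untreated and 95.4 and 94.5 with LPS, a shift of 3.53 ± 0.35 (adjusted p = 0.0110). The authors' -log10 p behind it was 21.4 and 13.2 untreated and 296 and 244 with LPS. Of the 6 regions within 50 kb that had Il12b as their closest gene, 1 fell and 1 was lost. That fall was not called without either untreated library. The region near the gene end of Pilrb1, an activating receptor of myeloid cells, had -log10 p values of 11.7 and 9.70 untreated and 83.6 and 89.9 with LPS, a shift of 3.40 ± 0.29. For the other rises the closest gene ends were those of Abi1 (6.2 kb), Jazf1 (29.5 kb), Reps1 (21.6 kb) and Zfp811 (0.8 kb). Beyond 50 kb they were those of Arhgap26 (73.4 kb), Tbc1d1 (136.7 kb) and Eci2 (181.4 kb). These other rises had shifts from 3.27 to 4.10. The largest rises and falls were picked among called regions in which no LPS rank overlapped an untreated rank.

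The largest fall was at chr19:47508576-47509161, 7.8 kb from Stn1, a telomere replication factor. Its percentile was 60.9 and 60.2 untreated and 0.256 and 0.184 with LPS, a shift of -3.12 ± 0.14 (SE, limma, adjusted p = 0.0103). Near Pdcd1, which encodes the checkpoint receptor PD-1, the percentile went from 52.2 and 46.4 to 0.139 and 1.18, a shift of -2.61 ± 0.27. Near Pde7b, a cAMP phosphodiesterase, it went from 75.3 and 71.8 to 1.57 and 4.34, a shift of -2.56 ± 0.19. The others had their closest gene ends at Tbc1d1, Ehd4, Creb1 (50.5 kb), Zdhhc14, Atp8b5, Snx2 and Lpo, with shifts from -2.89 to -2.55. The falls at Pdcd1, Creb1 and Zdhhc14 were not called without either untreated library. Tbc1d1, a Rab GTPase-activating protein that acts in glucose uptake, had the closest gene end to a rise 136.7 kb and a fall 14.2 kb away. The rise lies beyond the 50 kb within which regions are assigned to genes below.

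**Figure D3:**
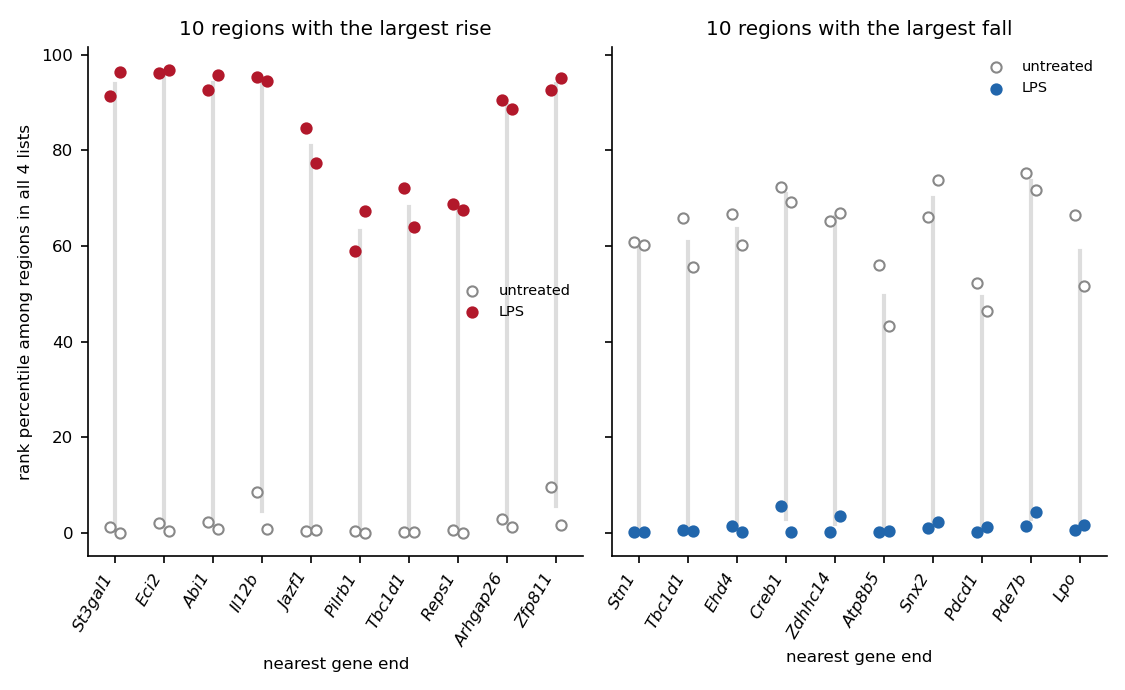
Rank percentile among the regions held by all 4 lists (y axis) in each library, for the 10 regions with the largest rise and the 10 with the largest fall, named by the nearest gene end. Open points are the 2 untreated libraries, filled points the 2 LPS libraries and grey lines join the group means. Only regions whose groups do not overlap could be picked.

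Each region was then assigned to the nearest protein-coding gene end within 50 kb of its summit, which placed 59532 regions on 15175 genes. Assignment to a gene does not show that the region acts on it. Of the regions with a gene, 9.66% were gained and 6.08% lost, and of those held by all 4 lists 8.48% rose and 7.38% fell. At least 1 gained region fell to 3747 genes (24.7%), at least 1 lost region to 2887 genes (19.0%), and both to 956 genes. The gene lists below are described by these shares and were not tested as sets.

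Inflammatory cytokine genes had more gained and fewer lost regions than genes in general. Of the 140 regions of its 20 genes, 29 were gained (20.7%) and 5 lost (3.57%), and of its 68 regions held by all 4 lists 20 rose (29.4%) and 3 fell. Il6 had 5 gained regions among 7. The strongest, at chr5:29972826-29973257 and 40.1 kb away, had a -log10 p of 53.3 and 57.3 in the LPS lists. The region 0.2 kb from its gene end went from 66.2 and 72.6 untreated to 132 and 129 with LPS, a shift of 0.78 ± 0.14 (limma, adjusted p = 0.0250), which was not called when ranked by fold enrichment or with any 1 library left out. Il1b, the gene of IL-1 beta, had 4 gained regions of 12, the strongest at chr2:129410271-129410760 with 208 and 174. Another Il1b region 26.2 kb away rose from 179 and 184 to 361 and 331 (1.07 ± 0.13, adjusted p = 0.0139), and 1 region 4.3 kb away fell from 83.9 and 110 to 25.4 and 21.4 (-1.42 ± 0.15, adjusted p = 0.0118). The fold enrichment of the first overlapped, at 16.4 and 17.0 untreated and 16.9 and 17.6 with LPS, and its rise was not called when ranked by it. Il10, the anti-inflammatory cytokine, had 4 gained regions of 14, the strongest at chr1:130997422-130997993, 22.1 kb away, with 193 and 191. Inhba, the activin A subunit, had 4 gained of 7. Tnf had none: of its 3 regions the 2 in all 4 lists had shifts of -0.34 ± 0.14 (adjusted p = 0.175) and -0.00 ± 0.13 (adjusted p = 0.997).

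Chemokine genes were mixed. Among CC chemokine regions 14.5% were gained and 5.26% lost, and among CXC chemokine regions 16.7% and 7.14%. Ccl5, which draws T cells and monocytes, had 6 gained regions of 11, and the strongest lay 0.1 kb from its gene end at chr11:83530308-83530823 with a -log10 p of 133 and 110. Cxcl10, an interferon-induced chemokine, had a gained region 0.4 kb away (35.2 and 39.8) and another 14.5 kb away that rose from 16.4 and 12.6 to 120 and 123, a shift of 2.87 ± 0.26 (limma, adjusted p = 0.0108). Cxcl5, a neutrophil chemokine, had 4 gained of 6. Ccl4 had regions in both directions: 1 within 1 kb of its gene end was lost (76.6 and 60.7 untreated), 1 at 2.1 kb rose from 64.0 and 71.5 to 181 and 163, and 1 at 11.2 kb fell from 98.8 and 93.7 to 27.8 and 31.6. This rise was not called when ranked by fold enrichment. Chemokine genes lie in tandem clusters of similar copies, so the gene that a region is assigned to is uncertain there.

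Receptors that sense chemokines and lipids had more lost than gained regions. Of the 168 regions of the chemokine and inflammatory G-protein-coupled receptor list, 9.52% were gained and 11.3% lost, and 11 rose and 14 fell. Gpr34, a lysophosphatidylserine receptor, had 5 lost regions of 6 and its remaining region fell from 47.1 and 42.8 to 20.5 and 20.5 (-0.86 ± 0.16, limma, adjusted p = 0.0270). Gpr183, whose promoter is shown above, had 4 lost regions and 4 regions that fell among 10, the largest fall from 114 and 111 to 22.6 and 28.4 (-1.46 ± 0.21, adjusted p = 0.0175). Others of the list gained regions. Adora2a, an adenosine receptor that dampens inflammation, had 3 gained of 7, the strongest at chr10:75318167-75318663 with 179 and 140, and Fpr1, the formyl peptide receptor, 3 of 5, with 174 and 135 at chr17:17884721-17885163.

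The LPS sensing and Toll-like receptor list had 9.80% gained and 9.31% lost of 204 regions. At the gene end of Tlr4 itself, chr4:66827307-66827883, the -log10 p went from 284 and 268 untreated to 90.6 and 74.4 with LPS, a fall of -1.15 ± 0.13 (limma, adjusted p = 0.0128). Cd180, a TLR4 homologue that restrains LPS responses in macrophages, had 5 lost regions of 18, Tlr5, the flagellin receptor, 3 of 10, and Tlr3, the double-stranded RNA receptor, 2 of 3. Genes downstream of the receptors differed among themselves. Tab2, an adaptor of the kinase TAK1, had 6 gained of 13, and Irak2 had 2 gained, 3 lost and 3 risen of 19.

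The NF-kB and IkB family list had 27 gained (21.3%) and 6 lost (4.72%) of 127 regions, and 13 of its 69 regions in all 4 lists rose (18.8%). Nfkb1, the gene of p105 and p50, had 7 gained of 22, the strongest 98.6 and 58.0. Nfkbiz, the gene of the nuclear protein IkB-zeta, had 6 gained of 12, and the region 0.2 kb from its gene end rose from 125 and 110 to 248 and 179 (0.84 ± 0.16, limma, adjusted p = 0.0295), a call lost when ranked by fold enrichment or with any 1 library left out. Nfkbia, the gene of IkB alpha, moved both ways: a region 31.7 kb away rose from 26.7 and 36.4 to 116 and 108 (1.49 ± 0.17, adjusted p = 0.0124), while the wide region 0.5 kb from its gene end, chr12:55486880-55489214, fell from 181 and 158 to 59.7 and 43.2 (-1.05 ± 0.15, adjusted p = 0.0171).

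Of the 375 regions of genes that brake the response, 16.5% were gained and 4.53% lost. Tnfaip3, the gene of the ubiquitin editor A20, had 5 gained of 20, the strongest at chr10:18998771-18999870 with 85.5 and 97.3, but a region 5.9 kb away fell from 245 and 269 to 107 and 116 (-0.75 ± 0.15, limma, adjusted p = 0.0346), a call lost with any 1 library left out. Irak3, an inhibitory IRAK kinase, had 6 gained and 3 risen of 17. Tnip1, a partner of A20, had a gained region at chr11:54953986-54954497 with 260 and 159, at the 92.4th percentile of its lists. Dusp1 and Dusp16, which dephosphorylate MAP kinases, had 5 gained regions each, and Socs3, an inhibitor of JAK signalling, had 2 gained, 2 lost and 1 that rose from 38.4 and 50.5 to 198 and 162 (1.60 ± 0.16, adjusted p = 0.0110). Among survival genes, with 15% gained and 3.89% lost, Birc3, the gene of the ubiquitin ligase cIAP2, had 6 gained of 9.

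Interferon-induced genes had few lost regions. The guanylate-binding protein and IRG GTPase list had 15 gained (21.4%) and 2 lost (2.86%) of 70 regions. The interferon-induced effector list had 21 gained (13.8%) and 2 lost (1.32%) of 152. In limma 5 of 33 and 11 of 82 of their regions in all 4 lists rose and none fell; at an unadjusted p under 0.05, 0 and 3 fell, and with an intensity trend in limma 0 and 1. Gbp4 had 3 gained of 6 (strongest 58.4 and 94.9), Gbp7 2 of 4, and Ddx58, the gene of the RNA sensor RIG-I, 3 of 7. Usp18, the protease that removes ISG15, had a gained region 4.3 kb away with 139 and 96.9. The IRF and STAT list had 18.5% gained and 3.17% lost of 189 regions. Ifnar2, a chain of the interferon receptor, had 4 gained of 10, and Jak2 4 of 13.

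Metabolic lists differed. Of the glycolysis and hypoxia list 11% of regions were gained, of the arginine and itaconate list 11.5% and of the cholesterol list 9.14%, all close to the 9.66% of all genes, against 16.7% of the prostaglandin and leukotriene list. Pfkfb3, which makes the activator of glycolytic phosphofructokinase, had 7 gained of 26, the strongest at chr2:11524694-11525207 with 258 and 185, and 3 regions that rose. Hif1a, the hypoxia factor, had 5 gained of 12, and Slc7a11, the cystine importer, 5 of 12. Pla2g4a, the phospholipase that frees arachidonic acid, had 7 gained of 21 (114 and 84.4 in the strongest), whereas Ptgs1, the constitutive cyclooxygenase-1, had 1 lost region and 3 that fell of 8. Hpgds, the prostaglandin D synthase, had 2 lost and 1 that fell of 6. Nos2, the inducible nitric oxide synthase, had a region 0.1 kb from its gene end, chr11:78920380-78921010, that rose from 38.2 and 48.5 to 239 and 193 (1.85 ± 0.15, limma, adjusted p = 0.0104). Acod1, which makes itaconate, had a region at its gene end that rose from 65.5 and 89.6 to 191 and 141 (0.93 ± 0.17, adjusted p = 0.0265) and 1 at 2.6 kb that fell from 328 and 266 to 84.3 and 80.7 (-1.24 ± 0.16, adjusted p = 0.0148); ranked by fold enrichment, the first of these had a shift of -0.23 (adjusted p = 0.447). The oxidative phosphorylation list had 19.0% gained of 79 regions, of which only 2 of 48 in all 4 lists rose; 3 of its 15 gained regions lay near Cycs (cytochrome c) and 3 near Uqcrfs1.

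The co-stimulation and checkpoint ligand list had 14.5% gained, 3.76% lost and 21.4% of 98 regions risen. Alcam, an adhesion molecule that binds CD6, had 4 gained of 17, and 1 region at chr16:52292499-52293152 rose from 48.9 and 41.8 to 301 and 316 (2.29 ± 0.16, limma, adjusted p = 0.0103). Cd86 had 3 gained and 2 risen of 16 and Tnfsf4, the gene of OX40 ligand, 4 gained of 11. The region at the gene end of Cd40 rose from 151 and 144 to 228 and 188 (0.58 ± 0.14, adjusted p = 0.0468), but ranked by fold enrichment its shift was -0.08 (adjusted p = 0.820). The integrin and adhesion list had 11.7% gained, 6.45% lost, 8.15% risen and 11.1% fallen. In it Itgb8, which frees active TGF-beta, had 8 gained and 4 risen of 19, the largest rise from 15.5 and 23.2 to 198 and 146 (2.70 ± 0.26, adjusted p = 0.0109). Itgb5 had none gained, 2 lost and 4 that fell of 16, the largest fall from 92.3 and 84.4 to 15.2 and 13.7 (-2.27 ± 0.14, adjusted p = 0.0103).

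Several lists of genes known from resting macrophages had a lost share above that of all genes, but regions of these lists also rose. In the myeloid lineage list 20 regions rose (11.9%) and 18 fell (10.7%), and among scavenger receptors 13 rose (11%) and 14 fell (11.9%). Scavenger and phagocytic receptors had 4.42% gained and 9.39% lost of 181 regions, with 5 lost of 10 at Scarb2 (the lysosomal membrane protein LIMP-2), 4 of 19 at Scarb1 and 2 of 9 at Cd36. Lysosome and autophagy genes had 7.19% gained and 8.38% lost, including 3 lost of 13 at Ctsb (cathepsin B) and 3 of 11 at Atp6v0d2 (a proton pump subunit), where the strongest had 67.7 and 67.7 untreated. Of the myeloid lineage list 9.60% of regions were gained and 8.28% lost. Mef2c, a factor of myeloid and microglial cells, had 3 lost of 6, and Mef2a 3 lost and 2 that fell of 12, the largest fall from 266 and 235 to 55.5 and 50.6 (-1.45 ± 0.14, limma, adjusted p = 0.0110). Pparg, the nuclear receptor of lipid handling, had 3 lost and 3 that fell of 18 (largest fall from 151 and 139 to 42.1 and 27.8, -1.31 ± 0.17, adjusted p = 0.0143). Csf1r, the receptor for M-CSF, had a region 10.4 kb away that fell from 150 and 98.7 to 24.7 and 24.7 (-1.57 ± 0.20, adjusted p = 0.0147). Cx3cr1, the fractalkine receptor, had 1 at 11.1 kb that fell from 201 and 188 to 33.8 and 46.7 (-1.47 ± 0.21, adjusted p = 0.0171). Spi1, the gene of PU.1, had no gained, lost, risen or fallen region among 10, and its 7 regions in all 4 lists had adjusted p from 0.155 to 0.939.

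Cell cycle and ribosomal protein genes lay below the gained share over all genes. Cell cycle genes had 6.04% gained and 6.04% lost of 149 regions, and cytosolic ribosomal protein genes 3.8% gained and 10.1% lost of 79. Nuclear envelope and lamina genes had 8.11% gained and 6.31% lost of 111, close to the 9.66% and 6.08% of all genes. Over the settings tried, their gained share was 0.31 to 1.07 times that of all genes. Among the marker lists of other cells, the stromal and endothelial list had 15 of 47 regions gained (31.9%, but 11.1% against 9.40% of all genes when peaks under a -log10 p of 20 were left out), with 5 at Pdgfrb, which neighbours Csf1r, 4 at Kdr and 3 at Cdh5. The dendritic cell list had 14% gained, B cells 12%, and the T and NK cell and erythroid lists 0 of 29 and 0 of 10. What part other cells have in these regions was not tested.

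**Figure D4:**
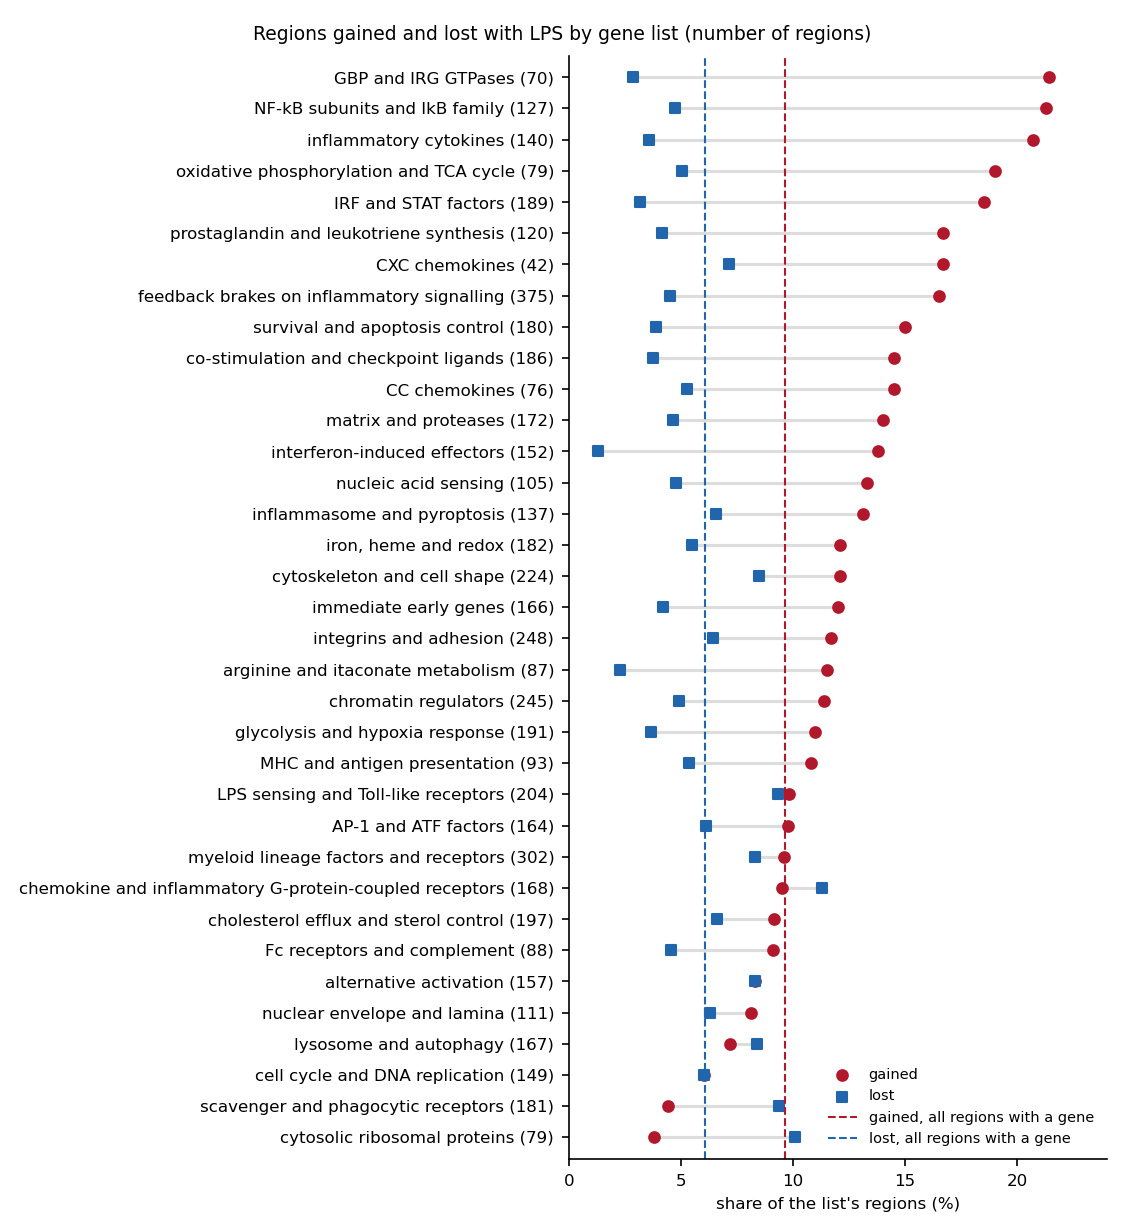
Share of each list's regions (x axis, percent) that were gained (circles) or lost (squares), with the number of regions in brackets and dashed lines at the shares over all regions with a gene, 9.66% gained and 6.08% lost. Inflammatory, NF-kB and interferon lists have circles far to the right of the red line, while scavenger receptor and ribosomal protein lists have squares to the right of their circles.

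Within single loci, change in both directions was common. Of the 30 macrophage genes followed here, 18 (60.0%) had at least 1 region that was gained or rose and at least 1 that was lost or fell, against 1766 of 15175 genes (11.6%) over the genome. These genes were chosen for their known roles, with earlier results of these data known, and have more regions than most, since the median gene had 3. Whether a fall in rank came from fewer reads or from a higher local background was not tested. Of the 30, 6 had change upwards only, among them Il6, Il10, Cxcl10, Cebpb and Klf4. Another 4 had change downwards only, among them Csf1r, Cx3cr1 and Ccr2. Irf8, the interferon regulatory factor of myeloid cells, had 3 lost regions, 1 that rose from 82.4 and 84.3 to 161 and 152 and 1 that fell from 121 and 127 to 62.8 and 46.1. Neither call held with any 1 library left out, and the rise was not called when ranked by fold enrichment. Mrc1, the mannose receptor, had 1 gained, 1 lost and 1 that fell (a call lost by fold enrichment and with any 1 library left out). Mertk, a receptor for apoptotic cells, had 1 gained and 2 that fell. Neither Mertk fall was called with any 1 library left out, and 1 of them was not called when ranked by fold enrichment.

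**Figure D5:**
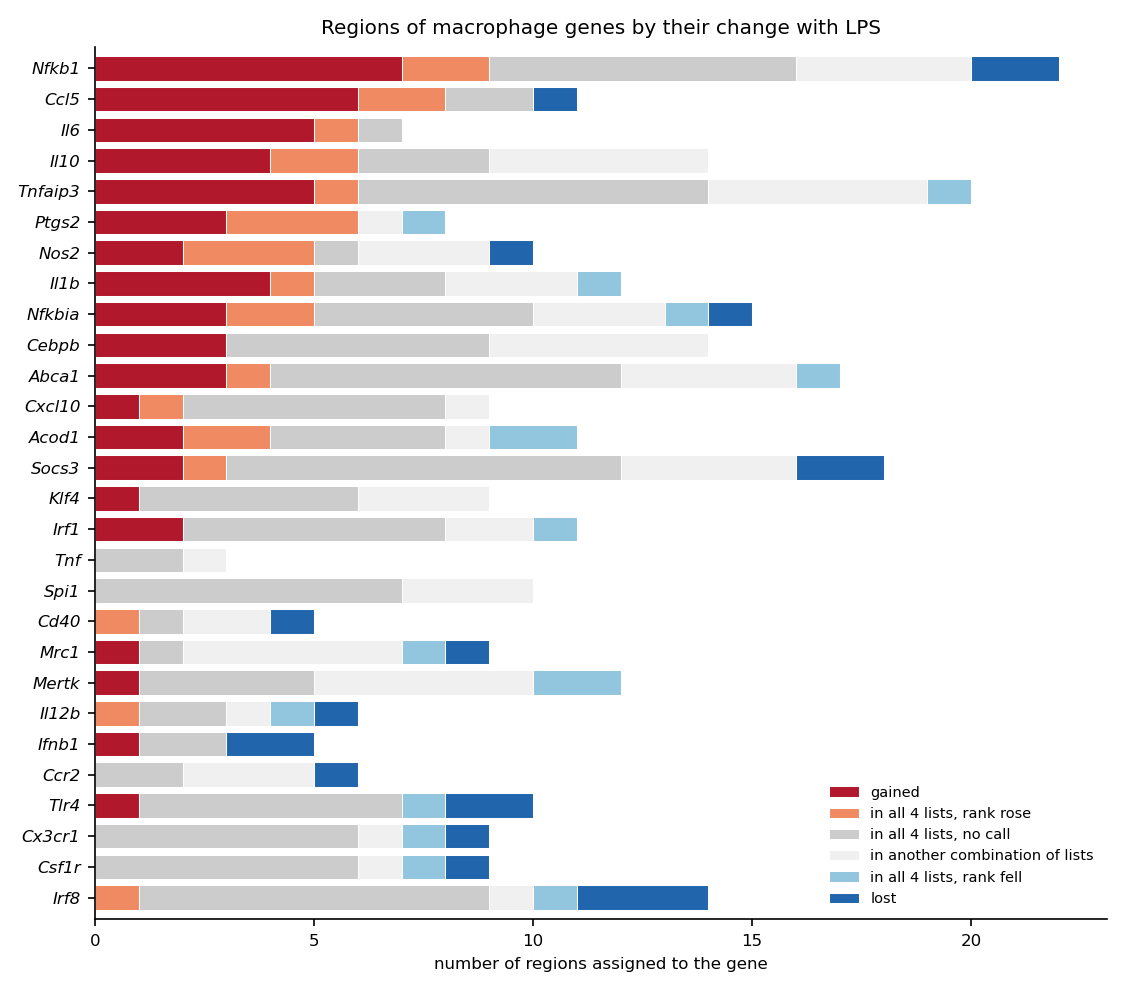
Number of regions assigned to each macrophage gene followed and reported by name (x axis), split by class and ordered from the most gained and risen to the most lost and fallen. Nfkb1, Ccl5, Il6 and Tnfaip3 have 5 or more gained regions, Tnf and Spi1 have no region that changed, and Irf8 has 3 lost regions.

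Genes with many gained regions were few: 451 had at least 3 and 75 at least 5. Met, the receptor for hepatocyte growth factor, had the most, 11 of its 20 regions, and 3 more rose. The largest rise there, at chr6:17459569-17460078, went from 14.5 and 13.7 untreated to 177 and 144 with LPS (3.22 ± 0.15, limma, adjusted p = 0.0103). Hgf, the gene of its ligand, had its promoter peak lost, at 36.6 and 50.3 in the untreated lists. Other genes high on this count included Rcl1 (9 of 15), Vps54, Itgb8, Auh and Fnbp1l (8 each) and Papss1, Prex1, Rftn1 and Hibadh (7 each). Prex1, a Rac activator of phagocytes, had 26 regions in all, and Papss1, which makes the sulfate donor PAPS, had its strongest gained region at chr3:131618369-131619106 with 181 and 179. Zeb2, a repressor that helps to keep macrophage identity, had 5 gained and 5 risen of 20, and Klf3 6 gained of 13. Lost regions were more scattered: 140 genes had at least 3 and 7 had at least 5, led by Asap1 (7 of 20), then Scarb2, Cd180, Mta3, Arntl, Mical2 and Gpr34 with 5 each. Arntl, the gene of the clock factor BMAL1, also had 2 gained regions.

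Some stretches with many changed regions held no protein-coding gene. Of 12920 windows of 100 kb with a region, 103 held at least 5 gained regions and 10 held at least 5 lost regions. The window chr10:19100001-19200000 holds no protein-coding gene end and had 9 gained and 0 lost regions, with a median list percentile of 59.7. Its nearest genes are Tnfaip3, 84.6 kb away, and Olig3, 157 kb away, and its strongest region, chr10:19152789-19153307, had a -log10 p of 173 and 171 in the LPS lists. The other windows with the most gained regions were at Vps54, 49.7 kb from Peli1 (an E3 ligase of Toll-like receptor signalling), at Ccl5, Ccl6 and Ccl9, at Tnip1, Anxa6 and Gpx3, and at Rcl1, 51.8 kb from Jak2. The window with the most lost regions, chr8:12000001-12100000, also has no protein-coding gene and held 6 lost and 0 gained regions, the strongest with 20.5 and 32.6 untreated. The window at Gpr18 and Gpr183 held 5 lost regions and 1 gained. By chromosome, the share gained ran from 8.59% on chromosome 7 to 13% on chromosome 13, and the share lost from 5.15% on chromosome 19 to 7.54% on X.

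The strongest gained regions in the genome were mostly distal. After the region 9.0 kb from Ier5, with 323 and 263, came regions near Rbbp8 (304 and 270), Slco3a1 (299 and 245, at chr7:74527581-74528130), Eci2 (247 and 212, 257.1 kb away) and Itga4 (237 and 202, 87.2 kb away). Within 1 kb of a gene end the strongest were at Cep350 (191 and 179), Kcnh1 (150 and 142), LOC115488765 (143 and 145), Ccl5, Fam187b (132 and 101), Il4i1 (89.9 and 104), Zfp871, Orm2, Ms4a4d and Saa3 (74.0 and 96.6). Il4i1 encodes a secreted amino acid oxidase of activated myeloid cells, and Orm2 and Saa3 encode acute phase proteins. The strongest lost regions were weaker, led by regions near Hspa9 (189 and 163 untreated) and Zranb3 (136 and 115). Within 1 kb of a gene end they were at Mapkapk2 (137 and 114), the kinase that stabilises cytokine messages, at Plekho2, at Lpl, the lipoprotein lipase (66.5 and 88.9), at Ccl4, at Clcn4 (63.3 and 59.0), at Myc (62.9 and 57.6), at Emp3, at Tbpl1, and at Cpt1a, the gate of fatty acid import into mitochondria (63.8 and 53.0), followed by Fbxw10.

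MicroRNAs that act in LPS responses were looked up among 1005 annotated hairpins, of which 616 had a region within 10 kb, 99 of these (16.1%) a gained and 65 (10.6%) a lost one. Of the 15 looked up by name, the mature sequences of the 3 whose neighbourhood gained or lost a region are given below from RefSeq, 5' to 3', with the seed, bases 2 to 8, in capitals.
mmu-miR-155-5p: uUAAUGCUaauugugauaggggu
mmu-miR-146a-5p: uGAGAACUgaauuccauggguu
mmu-miR-223-3p: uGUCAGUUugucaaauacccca
The 3 seeds differ. Mir155, which promotes inflammatory signalling, had 5 regions within 10 kb, 1 of them gained 3.7 kb away at the 43.1th percentile and 1 risen. Mir146, which targets Irak1 and Traf6, had 3 regions, 2 of them gained, the nearest 2.8 kb away at the 21.4th percentile. Mir223, a myeloid microRNA, had 3 regions, 1 of them lost. Mir21a had 1 region of 6 that fell, and Mirlet7e and Mir125a, which are neighbours, shared 1 region of 3 that rose.

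The Lamin-A knockout libraries had no part in choosing these regions. Their lists were shorter than the wild-type ones, with 44504 and 47451 peaks untreated and 49661 and 45442 with LPS. Of the 7780 gained regions, 4.64% and 6.67% were called in the 2 untreated knockout libraries and 68.4% and 61.5% in the 2 LPS-treated ones, and 3729 met the rule for gained there too, while 9 met the rule for lost. Of the 4628 lost regions, 45.9% and 53.2% were called in the untreated and 7.91% and 4.45% in the LPS-treated knockout libraries, with 1378 lost and 7 gained there. Regions held by all 4 wild-type lists were called in 85.9 to 91.7% of cases in each knockout library. Of these 40033 regions, 861 met the rule for gained and 1342 that for lost in the knockout. Of the 2579 regions that rose in wild type and were called in all 8 libraries, 2543 (98.6%) had a higher mean rank score with LPS in the knockout, with a median shift of 1.04 there and 0.99 in wild type. Of the 2053 that fell, 2003 (97.6%) had a lower one, with medians of -0.91 and -0.88. Of the 26351 without a call, 45.3% had a higher one. Libraries of the 2 genotypes were prepared in the same study, so what they share beyond the treatment was not tested.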

How the data were processed

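ATAC-seq of mouse bone-marrow-derived macrophages was deposited as 1 peak list per library, and groups follow the sample titles, since the source names of LPS libraries also carry the word untreated. Reads were aligned with BWA 0.7.12 to mm10 and peaks called with MACS2, per the submitters' processing notes, and how the lists were then filtered is not given in the sources used here. The authors' lists hold, per peak, the −log10 p and −log10 q, the fold enrichment over local background at the summit, a summit offset, and a score that equals 10 times the −log10 p in whole numbers, as deposited. These are the peak's own values. Read depth is unknown from such lists, and replicates were not pooled.

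Peaks of the 4 wild-type lists were merged (1 bp). For regions in all 4 lists, −log10 p was ranked within each library over those 40033 regions, turned into normal scores and compared by limma 3.58.1 (R 4.3.3), with Benjamini-Hochberg adjustment, and every adjusted p in the text is from this fit. The step was tested on simulated data, with a shift of 1 in 8000 of 40033 regions and the same spread in both groups. Of the shifted regions 73.4% were recovered, and 5.22% of the calls were false. Other shifts and an unequal spread between groups were not simulated, so these shares need not apply to the real calls. Library-wide values had exact permutation tests (scipy 1.17.1). Regions were assigned to the closest protein-coding gene end within 50 kb (RefSeq, GRCm38.p6), and promoter windows were available for 17492 of 21887 protein-coding genes. Python 3.11.15, pandas 2.3.3 and numpy 2.4.6 were used.

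Members, the 42 gene lists (956 genes, 951 matched to the table) and 30 followed genes were chosen with earlier results of these data known. The rule for names took the 30 followed genes, the 15 genes with the most gained and the 10 with the most lost regions, the 10 strongest gained and lost regions within 1 kb of a gene end, the 10 largest rank rises and falls, 5 windows of 100 kb in each direction, and up to 4 genes per list with the most gained or lost regions. The largest rank rises and falls were taken among called regions whose groups did not overlap. The strongest gained and lost regions at any distance and the promoters described were added after their values were seen. Alternatives tried were a −log10 p of at least 20, equal peak numbers, 50% cover, other gene distances, other ranks and fits, and each library left out. Values of some followed genes are not reported here.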

Additional observations from a re-analysis of the deposited data

How the results depend on the processing

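The counts of changed regions depended most on single libraries. With each library left out in turn, there were 9031 to 12092 gained regions, 5916 to 7734 lost regions, 4269 to 5367 genes with a gained region, 3563 to 4442 genes with a lost region, 752 to 1755 regions that rose and 138 to 1990 that fell, and every region that rose in the full fit kept its sign. Leaving out a library loosens the rule for gained and lost regions, which then needs 1 library of that group. The difference in peak number was 854.0 to 5247.0, that in the share of peaks near gene ends -1.96 to -1.03 percentage points, and that in covered length -0.261 to 1.24 Mb, with -0.0357 without untreated library 1 and -0.276 at equal peak numbers. Peaks with a −log10 p of at least 20 gave 6163 gained and 4259 lost regions, equal peak numbers 6868 and 5547, and 50% cover 8262 and 5013.

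With an intensity trend in limma, a setting chosen after seeing the data, 5678 regions rose and 5880 fell. Whether the replicate numbers pair the samples could not be told from the correlation of deviations (0.021), since each group had 2 libraries. With a replicate block 3150 regions rose and 2515 fell. Ranked by fold enrichment, 3429 rose and 3187 fell; the region at Cd40 then had a shift of -0.08, that at Acod1 -0.23 and that 33.8 kb from Nos2 -0.51, none of which passed the test, and the cause was not tested. Of the 10 largest rises and 10 largest falls, 17 were called in all 10 settings in which they could be tested. Of 41 other regions of followed genes with a rank call, 3 were called in every such setting, 38 were not called without at least 1 of the untreated libraries, and 18 were not called by fold enrichment. Leaving aside the 7 lists of markers of other cells, the gained share stood above that of all genes in 25 lists, 17 of them in all 9 settings. The motif alternative was not run, since it needs a genome sequence. Weak peaks limit the calls, and depth is unknown.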
